A study of Mus musculus with 3 samples.

Results

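The 9 genes described here are interleukin 6 and genes of the acute phase response around it: the cytokine Il6, its receptor chain Il6ra, the feedback inhibitor Socs3, and the secreted proteins Saa3, Lcn2, Hp, Lrg1, Itih4 and C3. They were chosen from earlier measured values of these same data, and were found by their symbols as 9 of the 27998 genes in the count matrices. All 9 had at least 1 transcript counted in each of the 3 libraries. Each library is droplet single-cell RNA sequencing of dissociated lung cells from C57BL/6 female mice 10 to 12 weeks old: a control that was not irradiated, 1 after a 17 Gy dose to the thorax at conventional dose rate (CONV), and 1 after the same dose in FLASH mode, that is at an ultra-high dose rate. The irradiated animals received 4.5 MeV electrons from a linear accelerator under isoflurane. How many mice each library holds, and how long after the dose the lungs were taken, is not stated in the labels used here.

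Interleukin 6 binds its receptor chain Il6ra on the cell surface or in soluble form, and the pair engages the shared chain Il6st, which activates JAK kinases and the transcription factor STAT3. STAT3, together with C/EBP and NF-kB factors, drives acute phase genes, and it also induces Socs3, which binds the receptor complex and shuts the signal off. The liver makes most circulating acute phase proteins, but lung epithelium, fibroblasts and myeloid cells make several of them locally.

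Gene positions below are on the mm10 build. Promoter windows from RefSeq (GRCm38.p6), of 300 bases from 250 before to 50 after the start, were found for 8 of the 9. The STAT motif TTCNNNGAA, searched on both strands as all motifs were, lay in the windows of Socs3 and Itih4 and in 8.30% of all 32851 windows. The C/EBP motif TTNNGNAA lay in Il6, Il6ra, Saa3, Lcn2 and C3 and in 40.7% of all windows. The AP-1 motif TGANTCA lay in Il6 and in 7.81% of all windows, and the NF-kB motif in Il6 and Lcn2 and in 11.2% of all. None of the 4 motifs was found in the Lrg1 window. These matches are descriptions of letters, not of bound sites. The bases upstream of the annotated gene are printed for Il6 and Saa3, which were both among the leading genes of 1 cluster, and for Itih4 and Lrg1, which were both lower in irradiated alveolar type 2-like cells. They are written 5′ to 3′ on the strand of the gene, with motif matches in capitals.
Il6 (chr5:30012864-30013113, plus strand): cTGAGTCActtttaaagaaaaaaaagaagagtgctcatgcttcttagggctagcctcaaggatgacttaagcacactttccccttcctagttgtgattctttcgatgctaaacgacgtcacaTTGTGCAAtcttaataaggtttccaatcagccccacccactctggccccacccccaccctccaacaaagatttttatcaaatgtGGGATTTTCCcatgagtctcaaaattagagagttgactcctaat
Saa3 (chr7:46715701-46715926, minus strand): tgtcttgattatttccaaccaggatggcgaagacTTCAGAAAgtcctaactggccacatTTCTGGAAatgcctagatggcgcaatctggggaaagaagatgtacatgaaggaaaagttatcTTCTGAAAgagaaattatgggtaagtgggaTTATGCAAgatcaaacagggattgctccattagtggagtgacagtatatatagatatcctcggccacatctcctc
Itih4 (chr14:30886226-30886475, plus strand): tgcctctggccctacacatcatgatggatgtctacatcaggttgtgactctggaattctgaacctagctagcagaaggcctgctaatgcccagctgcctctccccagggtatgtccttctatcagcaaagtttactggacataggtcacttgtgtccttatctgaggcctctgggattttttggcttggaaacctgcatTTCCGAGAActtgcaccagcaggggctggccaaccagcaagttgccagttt
Lrg1 (chr17:56122002-56122196, minus strand): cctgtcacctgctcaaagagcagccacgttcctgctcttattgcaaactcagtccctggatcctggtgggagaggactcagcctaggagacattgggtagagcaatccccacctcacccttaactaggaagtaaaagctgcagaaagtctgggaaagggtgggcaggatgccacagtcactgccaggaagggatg
In Il6 the capitals are, from left to right, the AP-1, C/EBP and NF-kB matches. In Saa3 they are 4 C/EBP matches, in Itih4 the STAT match, and in Lrg1 there are none.

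Levels are given in CPM, the transcripts (unique molecular identifiers, UMIs) of a gene per 1000000 UMIs of the same cells. After filtering, 1705 control, 2388 CONV and 2253 FLASH cells remained, with medians of 2951, 2350.5 and 1794 UMIs per cell, so FLASH was the shallowest library. Cells fell into 26 clusters, named "-like" from markers. Brackets hold 95% intervals, which cover counting error only. With 1 library per group (n = 1) no difference has a replicate check and no test was made. A ratio is called higher or lower here when it is at least 1.5 or at most its inverse, with at least 30 UMIs in both libraries together. Libraries shared 7, 7 and 5 barcodes in pairs. In the control, 355 cells formed thymocyte-marked clusters, of which the irradiated libraries held 1 cell in all, so whole-library levels of the control are diluted by cells the others lack.

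Over whole libraries, Il6, Il6ra and Saa3 were called higher in FLASH than in the control, and Lrg1 and Itih4 lower in CONV. CONV against control gave 2 of 9 members higher (Il6ra and Lcn2) and 2 lower (Lrg1 and Itih4), where 20.6% and 17.7% of all genes passed in those directions. FLASH against control gave 3 higher and 1 lower (Itih4), against 19.9% and 17.8% of all genes. FLASH against CONV gave 3 higher (Il6, Socs3 and Saa3) and 0 lower, against 3.03% and 3.37% of all genes. Without the thymocyte-marked clusters, Il6ra and Lcn2 lay at 1.45 and 1.18 in CONV against control and no longer passed, and 0 members were higher. Over the same cells the FLASH-to-control ratios of Il6, Il6ra and Saa3 were 1.96, 1.65 and 2.45. Lrg1 was at 0.472 of the control in CONV and 0.534 in FLASH in those cells.

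Within the epithelial, endothelial, stromal and myeloid compartments, each member was compared in 4 places, 36 pairs in all. The make-up of a compartment differed between libraries too. Club-like cells held 612723 of 1660516 epithelial UMIs in the control and 632476 of 2818070 in CONV. Lymphatic-like cells were 1 of 92 endothelial cells in the control and 18 of 92 in CONV. The part of this in the compartment ratios, here and in the lists below, was not tested. CONV against control gave 7 higher and 9 lower of 27 pairs with enough UMIs, where 13.1% and 9.39% of all gene and compartment pairs passed. The members' median log2 ratio was -0.30, beside 0.04 over all pairs. FLASH against control gave 6 higher and 6 lower of 24, against 12.9% and 9.84%, with a median of -0.16 beside 0.04. FLASH against CONV gave 7 higher and 2 lower of 27, against 5.18% and 5.96%, with a median of 0.18 beside 0.00. The members are few and were selected with such values in view, so these counts are a description. The plot of levels by class shows every member in each class of at least 10 cells.

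**Figure D1:**
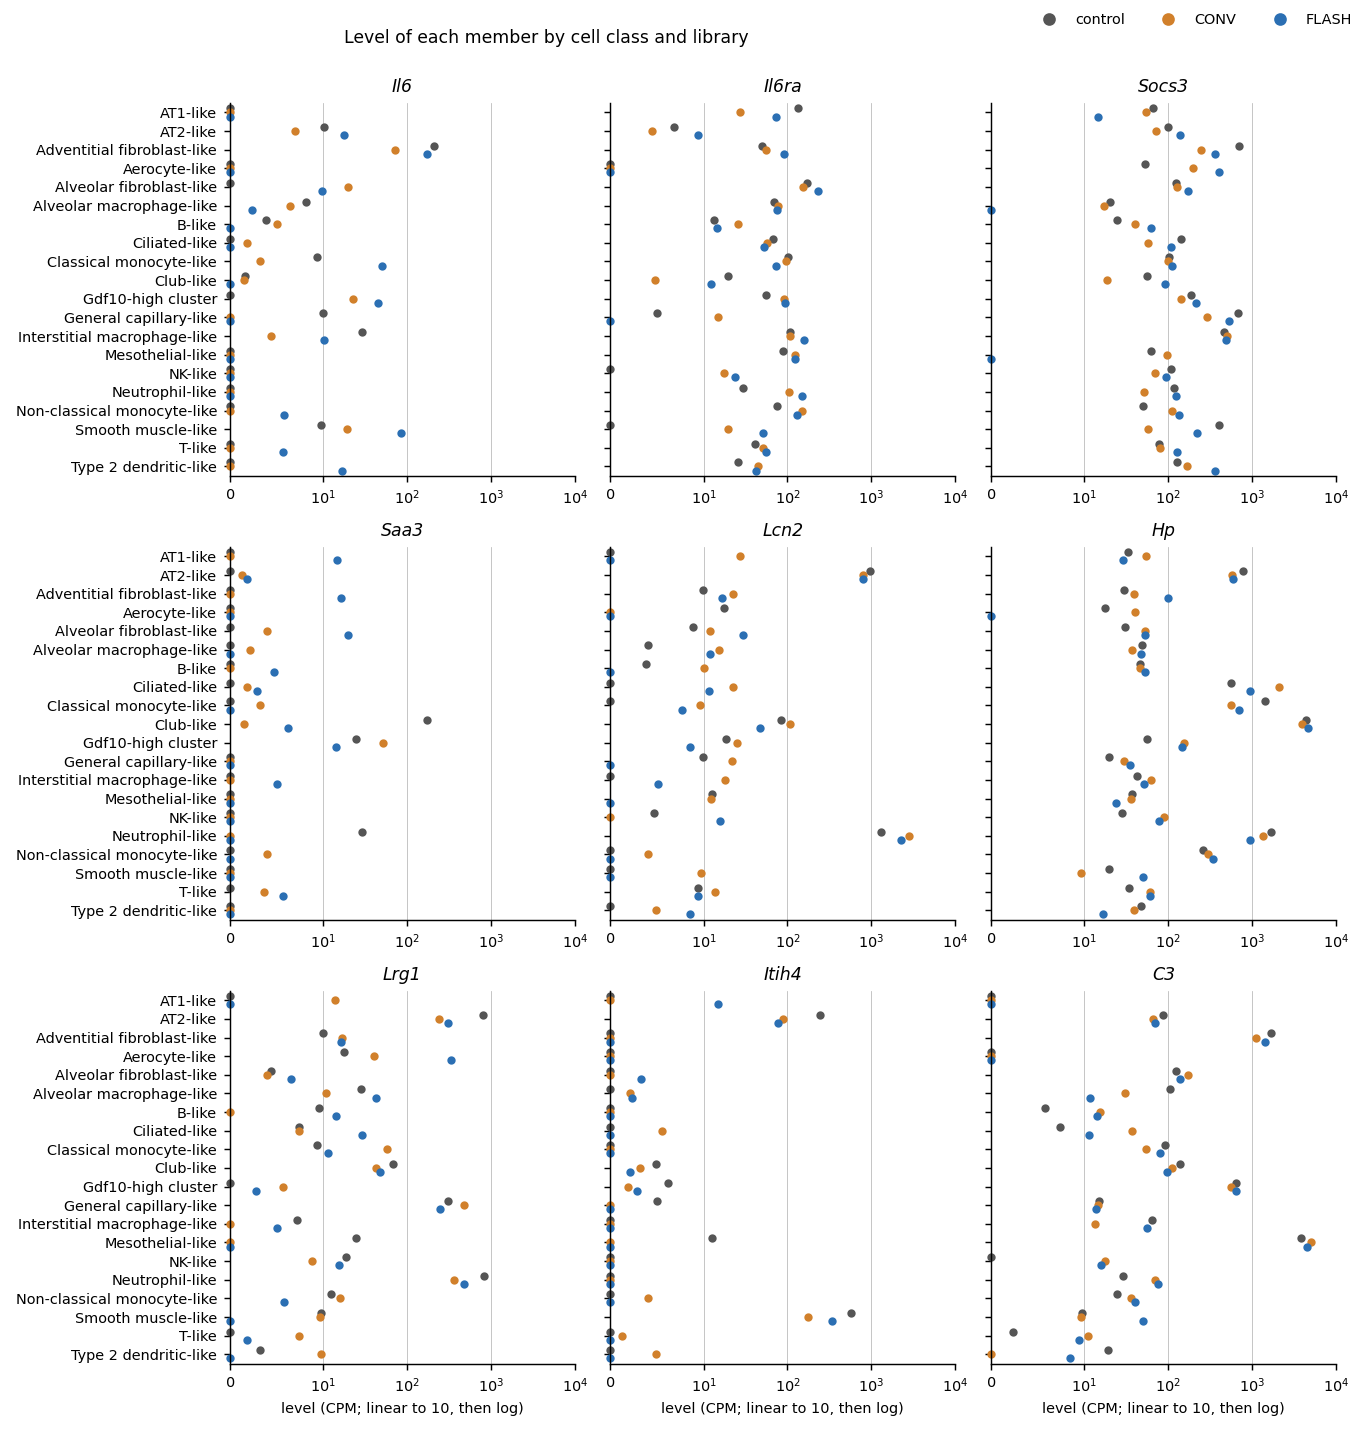
Level of each of the 9 members (x axis, CPM, linear to 10 and logarithmic above) in each cell class or cluster with at least 10 cells in every library (y axis), with 1 point per library. Hp reached its highest points in club-like cells, Lcn2 in neutrophil-like and AT2-like cells, C3 in mesothelial-like cells, and Itih4 only exceeded 20 CPM in AT2-like and smooth muscle-like cells.

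Il6 (ENSMUSG00000025746, chr5:30013114-30019981 on the plus strand) came from very few cells. The control held 124 Il6 UMIs in 23 cells, CONV 141 in 43 cells and FLASH 247 in 61 cells, or 18.1, 19.8 and 47.5 CPM. FLASH was the high library, at 2.63 (2.11 to 3.29) times the control and 2.40 (1.94 to 2.97) times CONV, while CONV and control lay within counting error. As few as 2 control cells, 6 CONV cells and 10 FLASH cells held 50% of the Il6 UMIs. T-like cells, which should lack Il6 here and served as the reference for RNA free in the suspension, held 0, 0 and 3 UMIs, or 0%, 0% and 0.909% of cells at median depths of 2330.5, 1848.5 and 1457 UMIs.

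Mast- or basophil-like cells, granulocytes of allergic responses, had the highest Il6 level of all clusters, and Il6 was among the 10 leading genes that define them, so this is no independent finding. They were only 3, 4 and 5 cells, with 46, 50 and 36 UMIs and levels of 6543, 6783 and 5865 CPM. A single control cell gave 40 of the 46 UMIs, and single cells gave 20 of 50 in CONV and 15 of 36 in FLASH. Without these cells the levels were 1480, 6499 and 4186 CPM, so the likeness of the 3 levels rests on the 1 control cell.

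The second source was a myeloid cluster with Prg4, Cd5l, Alox15, Saa3 and Serpinb2 among its leading genes. It carried markers of interstitial macrophages, such as C1qa, C1qb, C1qc, Apoe and Folr2, but no marker of that type was among its 10 leading genes, so it is called here the Prg4-high cluster. It held 2 control, 8 CONV and 18 FLASH cells, and Il6 was also among its 10 leading genes, so the same limit applies. Il6 counts in it were 35 UMIs in 1 of 2 control cells, 35 UMIs in 6 of 8 CONV cells and 125 UMIs in 16 of 18 FLASH cells. The cluster thus held 28.2%, 24.8% and 50.6% of each library's Il6 UMIs, and most of the FLASH excess sat in these 18 cells. Without the Prg4-high cluster, Il6 was at 13, 15 and 23.9 CPM, a FLASH-to-control ratio of 1.84 (1.39 to 2.44). Without the mast- or basophil-like cells too, it was at 6.29, 7.94 and 16.9 CPM, with a ratio of 2.68 (1.84 to 3.96). In both ratios the control still includes its thymocyte-marked cells, which dilute its level, and neither ratio was computed without them. Whether the FLASH lung held more Prg4-high cells or its suspension captured more of them cannot be told apart with 1 library per group.

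Among the 16 classes with at least 20 cells in every library, adventitial fibroblast-like cells, the matrix cells around vessels and airways, had the highest Il6 value in all 3, with a range that overlapped that of smooth muscle-like cells at 9.83, 19.4 and 84.3 CPM. Their levels were 210, 72.5 and 174 CPM from 21, 13 and 21 UMIs. A single cell gave 17 of the 21 control UMIs and another 16 of the 21 in FLASH, and without them the levels were 41.2 and 42.3 CPM, so the first place in FLASH rests on that cell. The CONV-to-control ratio of 0.346 moved to 0.956 without the top cell of each library, and that call ended. The ranges of the classes that followed overlapped their neighbours too. In AT2-like cells, the surfactant makers, Il6 was near 10 CPM: 9, 11 and 19 UMIs gave 10.2, 6.98 and 17.8 CPM.

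**Figure D2:**
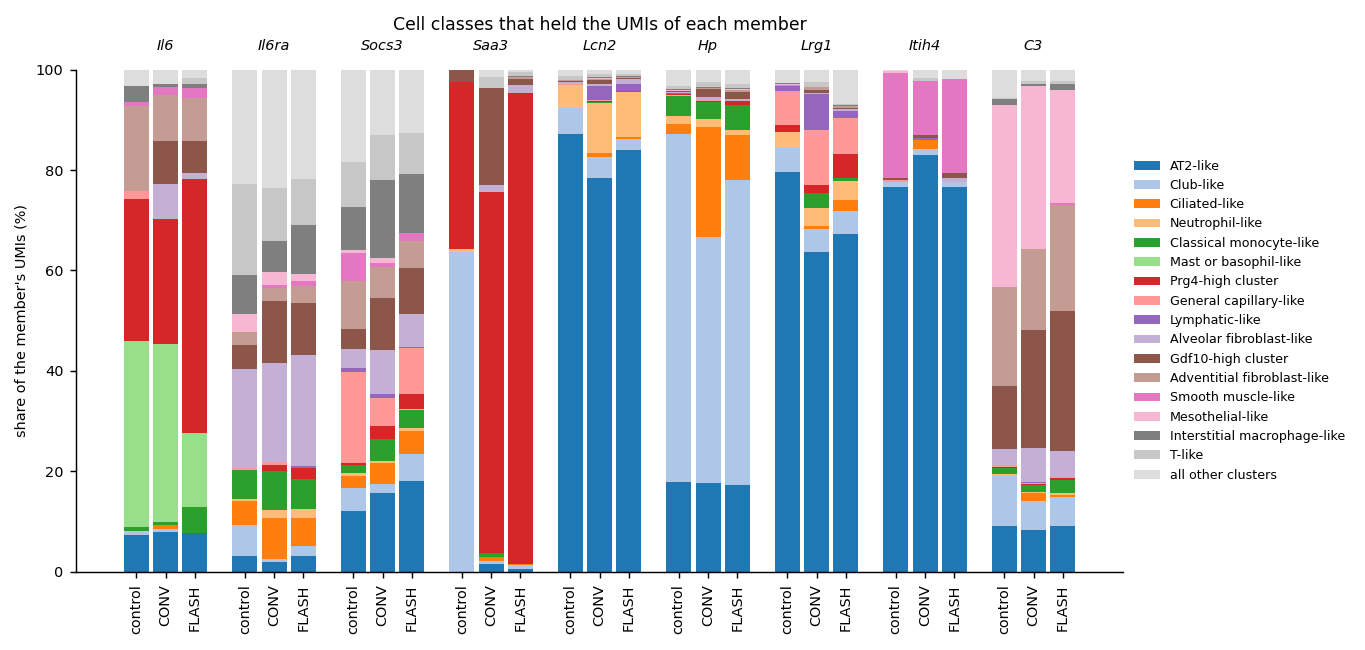
Share of each member's UMIs (y axis, %) held by each cell class or cluster, with 1 bar per library for each member. The Prg4-high cluster held 50.6% of Il6 and 93.9% of Saa3 UMIs in FLASH, whereas AT2-like cells held 63.6% to 87.2% of the Lcn2 and Lrg1 UMIs in every library.

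Il6ra (ENSMUSG00000027947, chr3:89864059-89913196 on the minus strand), the ligand-binding chain of the receptor, was spread thinly over fibroblasts, myeloid cells and some other classes, with at most 3 UMIs in any cell. It was found in 160, 341 and 286 cells, at 28.1, 54.3 and 61.6 CPM. Alveolar fibroblast-like cells ranked first in all 3 libraries, at 169 (119 to 232), 152 (120 to 190) and 233 (182 to 294) CPM. AT2-like cells, used as the class that should lack it, held 6, 7 and 10 UMIs, or 6.79, 4.44 and 9.39 CPM, although they were the deeper cells, with medians of 6466, 3863 and 3192 UMIs.

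Interstitial macrophage-like cells followed with 108, 107 and 158 CPM of Il6ra, and classical monocyte-like cells held 102, 96.3 and 73.3 CPM. Non-classical monocyte-like cells, the patrolling monocytes, held 74.8, 148 and 129 CPM, with only 6 UMIs behind the control value and an interval of the CONV ratio from 0.829 to 5.74. The ranges of these neighbouring classes overlapped, so no order among them can be read. FLASH against CONV in alveolar fibroblast-like cells was at 1.53 (1.09 to 2.15). In the lymphoid compartment Il6ra was at 13.2, 42.7 and 40.4 CPM, a CONV-to-control ratio of 3.24, but that compartment includes the control's thymocyte-marked cells. In T-like cells alone, whose naive members are known to carry the receptor, the levels were 41.2, 50.5 and 54.7 CPM with overlapping intervals. Ciliated-like cells held 67.1, 57.7 and 52.1 CPM of Il6ra.

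Socs3 (ENSMUSG00000053113, chr11:117966079-117970047 on the minus strand), the STAT3-induced brake on the receptor, was lowest in CONV in several structural classes. It was measured in 320, 437 and 453 cells, at 108, 102 and 157 CPM over whole libraries. Without the thymocyte-marked clusters, which dilute the control, the levels were 136, 102 and 157 CPM. Over those cells CONV was at 0.749 (0.674 to 0.833) and FLASH at 1.15 (1.04 to 1.28) of the control. The leading classes were general capillary-like, interstitial macrophage-like and adventitial fibroblast-like cells, whose ranges overlapped. General capillary-like cells also passed 4 venous markers, so capillary and venous endothelium were not separated in this class. Its levels were 674 (565 to 798), 295 (211 to 402) and 527 (414 to 660) CPM. CONV was the low library there, at 0.438 (0.30 to 0.627) of the control, and FLASH was 1.79 (1.20 to 2.69) times CONV.

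Adventitial fibroblast-like cells held 709, 245 and 365 CPM of Socs3, ratios of 0.346 (0.232 to 0.512) in CONV and 0.515 (0.345 to 0.760) in FLASH against the control. A single control cell gave 27 of 71 UMIs, and without the top cells the FLASH ratio was 0.681, which no longer passed. Smooth muscle-like cells held 403, 58.1 and 219 CPM from 41, 6 and 13 UMIs, with CONV at 0.144 (0.0500 to 0.341) of the control. Interstitial macrophage-like cells stood apart from these classes in that their 3 levels, 461, 501 and 490 CPM, had overlapping intervals.

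In AT2-like cells Socs3 was at 101 (80.9 to 124), 72.4 (59.7 to 86.9) and 138 (117 to 162) CPM, and FLASH was 1.91 (1.48 to 2.46) times CONV. With every cell thinned to 1000 UMIs, 11.1%, 7.18% and 15.2% of AT2-like cells had a Socs3 UMI, beside 40.7%, 21.3% and 32.1% without thinning, where the control cells are deeper. The thinned order is that of the levels, with FLASH highest and CONV lowest, and the control interval overlapping both.

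Club-like cells, secretory cells of the small airways, had the highest FLASH-to-CONV ratio of Socs3 among the classes with a called ratio. The class of 32, 57 and 40 cells held 55.5, 19.0 and 91.0 CPM, but 8 control, 8 CONV and 1 FLASH cell in it had under 20% club marker UMIs. Krt5, Krt15, Krt17, Trp63 and Calca transcripts were each found in 6 to 8 of these 17 cells. The 24, 49 and 39 cells above that share, a limit chosen after seeing the data, had 8, 6 and 43 Socs3 UMIs, or 14.7, 9.75 and 89.3 CPM. FLASH was therefore the only high library among them, with Socs3 in 19 of 39 cells beside 6 of 24 and 6 of 49, at ratios of 6.08 (2.82 to 15) to the control and 9.16 (3.88 to 26.3) to CONV. These FLASH and CONV cells had close median depths, 12719 and 12889 UMIs, and the control cells were deeper, at 25866.5. Type 2 dendritic-like cells, which present antigen to T cells, were also high in FLASH, with 128, 166 and 366 CPM and a ratio to the control of 2.86 (1.81 to 4.51). This class also passed 6 markers of type 1 dendritic cells, so both types may be pooled in it.

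**Figure D3:**
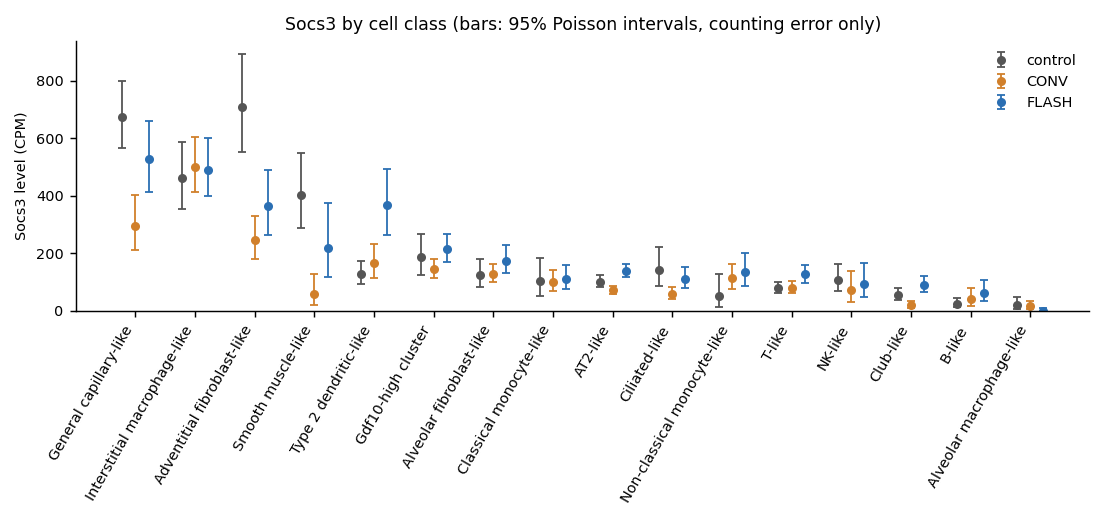
Socs3 level (y axis, CPM) in the 16 cell classes or clusters with at least 20 cells in every library (x axis, ordered by the mean of the 3 libraries); points are libraries and bars are 95% Poisson intervals for counting error only. In general capillary-like cells CONV, at 295 CPM, lay below the control at 674 and FLASH at 527, while the interstitial macrophage-like values of 461, 501 and 490 overlapped.

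Socs3 is an early response gene, and genes induced by tissue dissociation had its order of libraries in some classes and not in others. Of a list of 12 such genes (Fos, Junb, Atf3, Ier2 and others) over the 4 compartments, 1 was higher and 21 lower of 43 pairs in CONV against control, with a median log2 ratio of -0.57. In FLASH against control 2 were higher and 9 lower of 43, with a median of -0.30, and in FLASH against CONV 4 were higher and 0 lower of 43, with a median of 0.20. Their summed level was 11926, 6661 and 7881 CPM in general capillary-like cells and 12730, 3997 and 6676 CPM in smooth muscle-like cells, which is the order of Socs3 there. In ciliated-like cells it was 10887, 5580 and 7616 CPM and in the Gdf10-high cluster 5850, 4818 and 6900 CPM. Socs3 had the same orders there, at 142, 57.7 and 110 CPM and at 187, 144 and 213 CPM. The summed level was 7007, 4675 and 5759 CPM in AT2-like cells and 10728, 8821 and 7126 CPM in adventitial fibroblast-like cells. It was 5350, 4351 and 4366 CPM in type 2 dendritic-like cells and 4779, 4318 and 4317 CPM in the whole club-like class. In these 4 classes Socs3 had another order, as it did in the remaining classes with at least 20 cells in every library. The part of the dissociation genes in the Socs3 values was not tested.

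Saa3 (ENSMUSG00000040026, chr7:46711998-46715700 on the minus strand), an inducible serum amyloid A made outside the liver, was held by fewer cells than Il6 in every library. The top 10 cells held 100%, 89.9% and 86.4% of its UMIs, beside 89.5%, 68.1% and 52.6% for Il6. The counts were 165 UMIs in 6 control cells, 139 in 24 CONV cells and 412 in 33 FLASH cells, or 24.1, 19.5 and 79.3 CPM. FLASH was again the high library, at 3.30 (2.74 to 3.97) times the control and 4.06 (3.34 to 4.95) times CONV. The Prg4-high cluster, of which Saa3 is a leading gene, held 55, 100 and 387 of these UMIs in 2, 4 and 13 cells, at 5591, 2053 and 4556 CPM. In CPM of this cluster FLASH did not exceed the control, and the FLASH excess over the whole library went with 18 cells in place of 2.

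Without the Prg4-high cluster Saa3 was at 16.1, 5.52 and 4.89 CPM, and FLASH was at 0.305 (0.189 to 0.474) of the control, so the direction turned. Of the 105 control UMIs in the club-like class, 64 came from a single cell with 61 club marker UMIs among 13358, and 41 from one other cell. The club-like class and the Prg4-high cluster held 63.6% and 33.3% of the control's Saa3 UMIs. The turn in direction therefore rests on those club-like control cells, and the ratio was not computed without both. The Gdf10-high stromal cluster held 4, 27 and 5 Saa3 UMIs, or 24.9, 51.7 and 14.2 CPM. T-like cells held 0, 3 and 3 Saa3 UMIs.

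Lcn2 (ENSMUSG00000026822, chr2:32384633-32388252 on the minus strand), the siderophore-binding lipocalin that withholds iron from bacteria, belonged to AT2-like and neutrophil-like cells. In AT2-like cells 850, 1249 and 844 UMIs gave 962 (899 to 1029), 793 (749 to 838) and 792 (740 to 848) CPM. Both irradiated libraries lay below the control interval, and neither ratio passed 1.5-fold. AT2-like cells ranked first among the 16 classes in every library, and their range did not overlap that of club-like cells, at 83.2, 106 and 47.6 CPM. T-like cells held 9.42, 13.6 and 9.44 CPM.

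Neutrophil-like cells, of which there were 13, 23 and 23, held 44, 160 and 90 Lcn2 UMIs, or 1284, 2785 and 2261 CPM. Both irradiated libraries were above the control there, and 1 CONV cell held 76 of the 160 UMIs. Lymphatic-like cells, the drainage endothelium, were 1, 18 and 12 cells and held 0, 44 and 15 UMIs, or 763 and 678 CPM in the irradiated libraries. The endothelial compartment ratio was 18.6 in CONV against control, with 44 of its 47 CONV UMIs in lymphatic-like cells. The 1 control lymphatic-like cell had 2373 UMIs in all, too few to set a level. The number of such cells and their Lcn2 level therefore cannot be told apart in this ratio.

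Hp (ENSMUSG00000031722, chr8:109575128-109579172 on the minus strand) encodes haptoglobin, which binds free haemoglobin, and was highest in club-like cells. They held 4348, 3961 and 4610 CPM in the 3 libraries, above every other class in each. Those cells with at least 20% club markers held 4893, 4069 and 4628 CPM. T-like cells, which should lack it, held 34.1, 61.6 and 60.4 CPM, with a UMI in 7.83%, 12.2% and 9.39% of cells, a level read as background. The called ratios of Hp in T-like cells, 1.81 and 1.77, are therefore at background level.

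Classical monocyte-like cells, the blood-derived precursors of lung macrophages, held less Hp in both irradiated libraries. Their levels were 1415 (1199 to 1658), 568 (488 to 659) and 694 (597 to 803) CPM from 152, 177 and 180 UMIs. The control stood above both others with no overlap of intervals, at ratios of 0.402 (0.322 to 0.502) in CONV and 0.491 (0.393 to 0.613) in FLASH. With cells thinned to 1000 UMIs, 74.1%, 36.4% and 44.1% of them had an Hp UMI. The control class was 27 cells.

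In AT2-like cells Hp was at 778, 573 and 594 CPM, lower in both irradiated libraries by less than 1.5-fold. Ciliated-like cells, the mucus-moving cells of the airway, held 567, 2083 and 949 CPM. Of these, 13 CONV and 2 FLASH cells carried over 5% club marker UMIs and held 4223 and 2466 CPM of Hp, and 0 control cells did. Without them the levels were 567, 917 and 846 CPM, with ratios to the control of 1.62 (1.26 to 2.11) in CONV and 1.49 (1.15 to 1.95) in FLASH, so the FLASH call ended. In the Gdf10-high stromal cluster, 9, 82 and 51 UMIs gave 56.0, 157 and 145 CPM, ratios of 2.80 and 2.59, above the T-like level in the irradiated libraries.

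Lrg1 (ENSMUSG00000037095, chr17:56119678-56122001 on the minus strand), a leucine-rich glycoprotein that modulates TGF-beta signalling through endoglin, was lower in irradiated AT2-like cells. The counts of 720, 376 and 328 UMIs in 135, 404 and 330 cells gave 815 (757 to 877), 239 (215 to 264) and 308 (275 to 343) CPM. The control stood above both irradiated libraries with no overlap of intervals, at 0.293 (0.258 to 0.332) in CONV and 0.378 (0.331 to 0.431) in FLASH. The FLASH-to-CONV difference was under 1.5-fold. Many cells carried it: 68.9%, 39.4% and 37.9% of AT2-like cells had an Lrg1 UMI, and after thinning to 1000 UMIs 36.3%, 14.9% and 18.5% did. Without the top cell of each library the ratios were 0.296 and 0.392.

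General capillary-like cells held 305, 480 and 246 CPM of Lrg1. A single control cell gave 40 of the 61 UMIs there, and the CONV-to-control ratio went from 1.57 to 3.86 without the top cells. Neutrophil-like cells held 817, 366 and 477 CPM from 28, 21 and 19 UMIs, and lymphatic-like cells 728 and 316 CPM in CONV and FLASH. T-like cells held 0, 6 and 1 UMI. The ranges of AT2-like and general capillary-like cells overlapped, and both stood above all other classes of at least 20 cells.

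Itih4 (ENSMUSG00000021922, chr14:30886476-30902353 on the plus strand), of the inter-alpha-trypsin inhibitor heavy chain family, was found mainly in AT2-like and smooth muscle-like cells. AT2-like cells held 213, 141 and 82 UMIs, or 241 (210 to 276), 89.5 (75.3 to 106) and 77.0 (61.2 to 95.5) CPM. The pattern was that of Lrg1, with both irradiated libraries below the control, at 0.371 (0.298 to 0.461) and 0.319 (0.244 to 0.414). After thinning, 21.5%, 9.65% and 6.06% of the cells had an Itih4 UMI.

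Smooth muscle-like cells held 58, 18 and 20 Itih4 UMIs in 7, 8 and 8 cells, or 570, 174 and 337 CPM. A single control cell gave 26 of the 58. CONV was at 0.306 (0.169 to 0.526) and FLASH at 0.591 (0.337 to 0.998) of the control, and without the top cells FLASH was at 0.710, which no longer passed. T-like cells held 0, 1 and 0 UMIs.

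Across the AT2-like cells, 2 of 6 members with enough UMIs were lower in CONV than in the control and 0 higher, where 8.83% and 11.3% of all genes passed. In FLASH against control 2 of 6 were lower and 0 higher, against 10.4% and 9.35% of all genes. In FLASH against CONV 2 of 7 were higher, Il6 and Socs3, and 0 lower, against 4.66% and 6.49%. The 2 lower members were Lrg1 and Itih4 in both comparisons, which share the control. Lcn2 and Hp were lower by less than the limit. The dissociation genes summed to 7007, 4675 and 5759 CPM in these cells, and their part in the Lrg1 and Itih4 values was not tested.

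**Figure D4:**
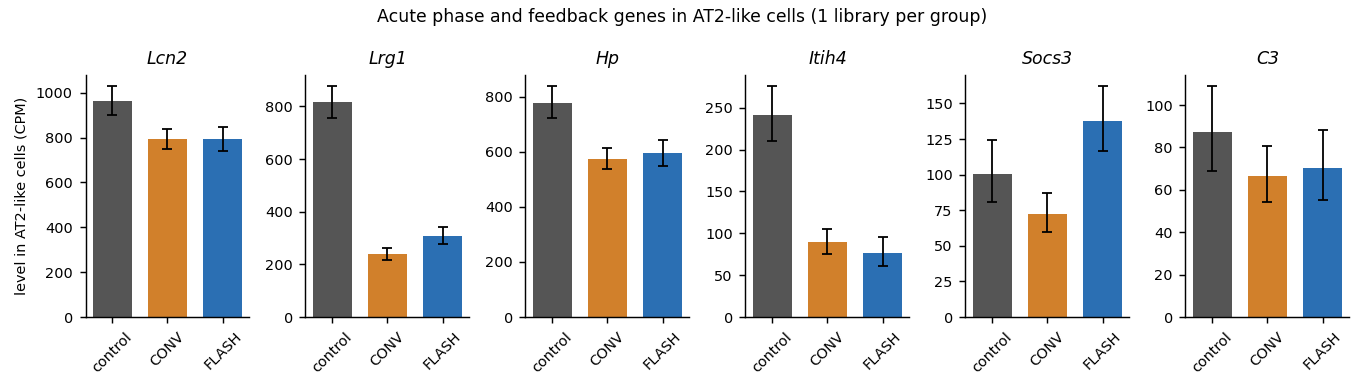
Levels (y axes, CPM, each from 0) of 6 members in AT2-like cells of the 3 libraries (x axes); bars are single libraries and lines are 95% Poisson intervals for counting error only. Lrg1 at 815, 239 and 308 CPM and Itih4 at 241, 89.5 and 77.0 CPM were lower in both irradiated libraries, while Socs3 at 101, 72.4 and 138 CPM was highest in FLASH.

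C3 (ENSMUSG00000024164, chr17:57203970-57228136 on the minus strand), the central complement protein, was a product of mesothelial-like and fibroblast classes. The 15, 19 and 17 mesothelial-like cells, the lining of the pleura, held 3847 (3428 to 4302), 5013 (4540 to 5523) and 4498 (3873 to 5194) CPM. CONV was above the control by less than 1.5-fold and FLASH lay between with overlapping intervals. Adventitial fibroblast-like cells held 1667, 1121 and 1442 CPM and ranked first among the 16 classes in every library, with a range apart from that of the Gdf10-high cluster at 653, 567 and 654 CPM. No ratio between libraries in these 3 populations passed 1.5-fold.

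Alveolar macrophage-like cells, the resident phagocytes of the airspace, were lower in C3 in both irradiated libraries. The counts of 26, 14 and 5 UMIs in 70, 197 and 201 cells gave 106 (69.5 to 156), 30.3 (16.6 to 50.9) and 11.8 (3.84 to 27.6) CPM. CONV was at 0.285 (0.137 to 0.566) and FLASH at 0.111 (0.0334 to 0.294) of the control. The FLASH level was close to that of the T-like reference, at 2.35, 11.1 and 9.44 CPM. AT2-like cells held 87.2, 66.6 and 70.4 CPM of C3 with overlapping intervals.

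The wider pathway was taken from lists. Of 8 IL-6 family ligands, Il6 included, 0 were higher and 4 lower of 5 pairs over the 4 compartments in CONV against control. Il6 in myeloid cells was 1 of the 4. Without the Prg4-high and mast- or basophil-like clusters, myeloid cells held 7 control, 5 CONV and 19 FLASH Il6 UMIs, too few for a call against CONV. The CONV-to-control ratio there was 0.435 (0.109 to 1.59). Among the others were Osm in myeloid cells at 132 beside 230 CPM (0.575, 0.473 to 0.699) and Lif in epithelial cells at 4.61 beside 20.5 CPM. Both are ligands of the same receptor family as Il6. In FLASH against CONV 4 were higher and 0 lower of 5, of which 3 were Il6 itself, in epithelial, stromal and myeloid cells, and 1 was Osm in myeloid cells, at 211 CPM. Among 9 receptor and shedding genes, FLASH against control gave 5 higher and 3 lower of 23, and Osmr, the oncostatin M receptor, was at 47.9, 86.5 and 94.6 CPM in stromal cells. Il6st, the shared signalling chain, was called lower in endothelial cells in FLASH, at 146 beside 232 CPM (0.631, 0.388 to 1.00).

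Of 13 STAT3 target genes, Socs3 included, 4 were higher and 8 lower of 40 pairs in CONV and 1 higher and 6 lower of 39 in FLASH against the control. Pim1, a kinase gene of that list, was at 44.0, 20.9 and 14.3 CPM in epithelial cells. The list's median log2 ratios were -0.25 and -0.16, beside 0.04 over all pairs in each comparison, and Junb stands in both this list and the dissociation list. The 13 signal transduction genes gave 2 higher and 3 lower of 32 in CONV, and 2 higher and 7 lower of 31 in FLASH.

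Among 14 measured C/EBP and NF-kB factors and their inducers, 8 were higher and 2 lower of 37 in CONV and 6 higher and 1 lower of 33 in FLASH against the control. Cebpb, the C/EBP factor first described as a nuclear factor for interleukin 6 expression, was at 363, 2972 and 2409 CPM in myeloid cells and 18.7, 267 and 180 CPM in epithelial cells. It was low in the control in all 4 compartments. The labels give the same kit, counting tool and build for the 3 libraries, but with 1 control library a difference in how it was made or counted and a difference in expression cannot be told apart, here or in any ratio to the control. Nfkbia, the NF-kB inhibitor, was at 270 and 159 CPM in epithelial cells of the control and CONV. Of the 6 genes for Il6 mRNA decay, 4 were higher and 5 lower of 20 in CONV, and Zfp36 in epithelial cells was at 319, 198 and 311 CPM.

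Of 31 other acute phase genes, most had too few UMIs, and 22 of 124 pairs were measured in CONV against control, with 5 higher and 1 lower. FLASH against control gave 7 higher and 3 lower of 21. Mt1, a metal-binding metallothionein, was at 1288, 1401 and 2246 CPM in myeloid cells, highest in FLASH. Serping1, the C1 inhibitor, was at 5.42, 31.2 and 21.9 CPM in epithelial cells. Of the complement genes around C3, 10 were higher and 3 lower of 33 in CONV and 6 higher and 2 lower of 26 in FLASH. Some of these were C1qa and C1qb, macrophage genes, at 2.41 to 19.5 CPM in epithelial cells, where free RNA and expression cannot be told apart.

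Of 9 partners of the acute phase proteins, 4 were higher and 0 lower of 15 in FLASH, and Hmox1, the haem-degrading enzyme, was at 66.4 and 149 CPM in myeloid cells of the control and FLASH. In CONV against control 4 were higher and 1 lower of 16, and Eng, the endoglin through which Lrg1 acts, was at 1437 and 889 CPM in endothelial cells. Those cells included 1 lymphatic-like cell of 92 in the control and 18 of 92 in CONV, and the part of this in the Eng values was not tested. The lists were compared with no test, and none is called particular. The shares of all pairs given above for each comparison are the background to these counts.

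Genes with the most similar pattern to each member were ranked by Pearson's r of log2(CPM + 1) over 54 combinations of class and library with at least 20 cells, among 6787 genes. The units share libraries and depth, so r is a description. C3 was most like Cfb (0.74), Fbln1 (0.73) and C2 (0.72). Hp was most like Wfdc2 (0.72), Hdc (0.71) and Cbr2 (0.69), and Lcn2 most like Sftpd, Sftpa1 and Chil1 (0.69 to 0.68). Itih4 was most like the muscle genes Cnn1 (0.69) and Myh11 (0.68), and Il6ra most like Naaa (0.70) and Cebpb (0.62). Socs3 was most like Igfbp4 (0.64) and Junb (0.64), and Lrg1 most like Kcnj15, Egfl7 and Npr1 (0.61 to 0.60). For Il6 (Scpep1, 0.63) and Saa3 (Aox3, 0.53) the counts were sparse and r is no finding.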

How the data were processed

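Dissociated lung cells of 3 groups, 1 library each, were profiled by droplet sequencing of transcript 3' ends (10x Genomics Chromium), per the labels' protocols. The deposited values were counts of UMIs per gene and barcode not normalized, from Cell Ranger 2.0 on mm10 as the authors ran it, per the submitters' processing notes. The 6662 barcodes carried 7114360, 7463259 and 5498902 UMIs in control, CONV and FLASH.

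Barcodes under 200 genes or over 10% mitochondrial UMIs were dropped, and 112 doublets were removed by Scrublet score at a loading rate of 0.8% per 1000 barcodes (its automatic threshold marked 39). Counts scaled to 10000 per cell were log transformed, and Leiden clustering (resolution 1, libraries not integrated) used 15 neighbours in 30 principal components of the 2000 most variable genes. A cluster took a name with at least 3 markers in 10% of its cells and 2-fold higher than elsewhere, at least 1 of them among its 10 leading genes. These naming limits were set after seeing the data.

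UMIs were summed per class and library, with exact Poisson intervals for levels, exact conditional binomial intervals for ratios and Clopper-Pearson intervals for shares, at 95%. A ratio was called at 1.5-fold with at least 30 UMIs. All 9 members are named; of each of 10 lists, up to 4 genes are named, the 2 with most UMIs and the 2 with the largest called ratios. Similar genes needed 300 UMIs and members 100. Gene positions are from GENCODE M21. The members and lists were chosen with earlier results of these data known. Alternatives covered filters, doublets, clustering, totals, weighting, free RNA and thresholds. Interval calculation was tested on simulated Poisson counts, the model on which the intervals rest. That test therefore checks the calculation only, and cannot show how the intervals hold for counts that vary between cells or animals. Scripts ran on Python 3.11.15 with matplotlib 3.10.9, igraph 0.11.9, pandas 2.3.3, scipy 1.17.1, numpy 2.4.6, anndata 0.12.19 and scanpy 1.11.5.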

Additional observations from a re-analysis of the deposited data

Results flagged for a closer look

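For 3 members the ratio to the control pointed one way in some classes and the other way in others, with intervals on either side of 1. Each class had 1 library per group, so the difference between classes was not tested.

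Hp in CONV against control was 3.68 in ciliated-like cells, 2.80 in the Gdf10-high cluster and 1.81 in T-like cells, but 0.402 in classical monocyte-like cells. In FLASH against control the same 4 gave 1.67, 2.59, 1.77 and 0.491. The ciliated-like values include cells with over 5% club marker UMIs, and the T-like values are at the level taken as background.

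Lrg1 in CONV against control was 0.293 in AT2-like cells and 1.57 in general capillary-like cells. Socs3 in FLASH against control was 0.515 in adventitial fibroblast-like cells, but 1.64 in club-like, 1.63 in T-like and 2.86 in type 2 dendritic-like cells. In the largest T-like cluster alone it was 1.08 (0.730 to 1.59), which ends that call, and the other T-like cluster held 155 control and 57 FLASH cells. Without the top cells the adventitial value was 0.681, which no longer passed. The club-like value was 6.08 in cells with at least 20% club marker UMIs. Without the top cells the Lrg1 value in general capillary-like cells was 3.86.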

How the results depend on the processing

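No paired analysis was possible because each group is 1 library. Of 64 called member ratios, 61 kept their direction under all 16 settings that gave a value. Hp in ciliated-like cells, FLASH against control, was 0.707 with doublets kept. Lrg1 in general capillary-like cells, CONV against control, was 0.243 at Leiden resolution 2, and Itih4 in smooth muscle-like cells, FLASH against CONV, was 0.864 at a mitochondrial limit of 5%. The cause of these reversals was not tested. Keeping a direction is not keeping a call, and some of the other ratios fell inside 1.5-fold under a setting. In the Gdf10-high cluster, CONV against control, Saa3 was as low as 1.02 and Il6ra as low as 1.34. With the T-like level subtracted, only 51 of the 64 ratios gave a value. The settings without cells of mixed club markers, and with the largest T-like cluster alone, were added after seeing the data.

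Counts of called members over whole libraries moved as follows. The 2 higher in CONV became 4 with each cell weighted equally, 1 with the T-like level subtracted, and 0 without the thymocyte-marked clusters or at a fold of 2. The 2 lower in CONV became 0 at a mitochondrial limit of 5%, with equal weights or at a fold of 2, 1 with doublets kept or with a pseudocount of 10 CPM, and 3 without the thymocyte-marked clusters or with the T-like level subtracted. The 3 higher in FLASH against control became 5 at a mitochondrial limit of 5% and 6 with equal weights. The 1 lower became 2 without the thymocyte-marked clusters and 0 at a fold of 2.

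Over the 4 compartments, a fold of 2 left 4 of 7 higher and 5 of 9 lower in CONV, 2 of 6 higher in FLASH against control, and 4 of 7 higher and 1 of 2 lower in FLASH against CONV. A minimum of 100 UMIs left 4 higher in CONV, and 4 higher and 1 lower in FLASH against CONV. The 6 higher in FLASH against control were 2 at a mitochondrial limit of 5%, 3 with equal weights or a pseudocount of 10 CPM, and 10 at a minimum of 10 UMIs. The 2 lower in FLASH against CONV were 4 with the T-like level subtracted. With classes of at least 50 cells, the leading class of a member in a library was another in 12 of 27 cases, and with thinning 10 of 27 shares left their interval. Il6, Saa3 and Itih4 outside AT2-like cells rest on few cells, and depth per cell, lowest in FLASH, limits shares of cells.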
